A study of Homo sapiens with 4 samples.

Results

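The genes described here encode 10 glycoproteins and proteoglycans of the extracellular matrix: FN1, TNC, SPARC, THBS1, THBS2, POSTN, LUM, VCAN, BGN and AGRN. Each was found by its symbol in the deposited expression table, and the 10 genes gave 10 rows out of 56753. For AGRN the row also carried the clone name RP11-54O7.14, so its value sums 2 names, and the other 9 rows named a single gene. The samples were 786-O cells, a long-established human line derived from a clear cell renal carcinoma and lacking functional VHL, profiled by RNA sequencing of total RNA. The control group carried a control vector (2 libraries) and the other group carried PRDM16, delivered by lentivirus (2 libraries). Both groups were stably transduced and grown as adherent cells under standard conditions, while the sources used here do not state if either was a clone or a pool. The comparison asks how overexpression of PRDM16, a zinc finger regulator of transcription, affected these genes.

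Fibronectin, tenascins, thrombospondins, SPARC and periostin are secreted glycoproteins that bind collagens, growth factors and integrins on the cell surface. Fibronectin is assembled into fibres that cells pull on. Thrombospondins, tenascin-C, periostin and SPARC are called matricellular, because they tune how cells attach and signal more than they bear load. Proteoglycans carry glycosaminoglycan chains on a core protein: versican carries chondroitin sulphate and binds hyaluronan, biglycan and lumican are small leucine-rich proteins that bind collagen fibrils, and agrin carries heparan sulphate in basement membranes. Renal carcinoma cells with mesenchymal features are known for a high output of fibronectin, while lumican and periostin are best known from fibroblasts.

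PRDM16 itself checked the labels, at 0.0157 and 0.234 FPKM in the control vector libraries and 1226 and 1146 FPKM in the PRDM16 libraries. The deposited values were read as FPKM, a level per length of transcript and per size of library. Each library had between 23138 and 24490 rows above 0. Absolute depth is unknown, and the lowest values put the other libraries at 1.16 to 1.39 times the depth of control vector replicate 1. Of 7 listed markers of kidney and renal carcinoma cells measured in rows of their own, 6 had a mean of at least 1 FPKM, with PAX8 between 169 and 208 FPKM and the exception being LHX1. Control vector replicate 2 stood apart: it held the highest of the 4 values at 33.9% and the lowest at 38.9% of the 13246 rows tested. Nothing in the labels tells separate cultures from repeat libraries, so the p-values reflect only the scatter of these 4 libraries, which could be technical.

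Promoter sequences of these genes are shown because their levels and differences varied widely. RefSeq sequence (GRCh38.p14) was found for 8 of the 10 genes, all but LUM and AGRN. The 250 bases before the RefSeq start were searched on both strands. Capitals mark matches to 5 motifs: the TATA element (searched as TATAA), the GC box (searched as GGGCGG), the CCAAT box, the cAMP response element (searched as TGACGTCA) and the AP-1 element (searched as TGANTCA). Neighbouring GC boxes may overlap. The windows below are those of TNC, which had the smallest p, FN1, the most abundant of the genes, BGN, which was higher with PRDM16, and the paralogues THBS1 and THBS2, whose levels lay far apart. They are chr9:115118158-115118407 (minus strand), chr2:215436069-215436318 (minus), chrX:153494730-153494979 (plus), chr15:39580829-39581078 (plus) and chr6:169253847-169254096 (minus).
TNC: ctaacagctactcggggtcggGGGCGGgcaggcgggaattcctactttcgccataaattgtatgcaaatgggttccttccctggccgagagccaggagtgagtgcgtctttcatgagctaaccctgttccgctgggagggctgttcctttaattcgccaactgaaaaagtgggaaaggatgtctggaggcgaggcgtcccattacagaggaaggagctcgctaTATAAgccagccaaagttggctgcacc
FN1: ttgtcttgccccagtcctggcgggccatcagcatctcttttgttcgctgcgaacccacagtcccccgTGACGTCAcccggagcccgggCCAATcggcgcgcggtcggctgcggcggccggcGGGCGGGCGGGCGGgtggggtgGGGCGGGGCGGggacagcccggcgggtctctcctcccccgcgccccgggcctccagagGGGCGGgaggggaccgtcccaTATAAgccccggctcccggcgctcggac
BGN: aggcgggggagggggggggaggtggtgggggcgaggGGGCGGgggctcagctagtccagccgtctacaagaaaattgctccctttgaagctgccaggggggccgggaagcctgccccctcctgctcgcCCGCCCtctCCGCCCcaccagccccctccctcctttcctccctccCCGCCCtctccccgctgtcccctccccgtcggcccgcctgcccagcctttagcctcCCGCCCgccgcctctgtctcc
THBS1: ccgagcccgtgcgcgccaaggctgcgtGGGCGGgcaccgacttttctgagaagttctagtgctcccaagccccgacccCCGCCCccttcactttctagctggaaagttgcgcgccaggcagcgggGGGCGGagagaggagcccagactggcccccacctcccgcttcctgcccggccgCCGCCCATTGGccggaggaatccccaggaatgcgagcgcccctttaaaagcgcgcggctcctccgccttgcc
THBS2: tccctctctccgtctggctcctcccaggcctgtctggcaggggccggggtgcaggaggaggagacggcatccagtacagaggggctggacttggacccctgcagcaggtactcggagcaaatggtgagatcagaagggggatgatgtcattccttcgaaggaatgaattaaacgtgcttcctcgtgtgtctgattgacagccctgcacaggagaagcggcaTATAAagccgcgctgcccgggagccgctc

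The TATA element occurred in 5 of the 8 windows (FN1, TNC, THBS2, POSTN and VCAN), against 18.9% of 35116 RefSeq windows of the same length. In each of those 5 a match began between 26 and 29 bases before the start. The GC box occurred in 5 of 8 (FN1, TNC, THBS1, VCAN and BGN), against 42.6% of all windows. FN1 held 6 such matches and BGN held 5. FN1 alone among the 8 held the cAMP response element, 183 bases before its start, against 1.65% of all windows. A CCAAT box was found in FN1 and THBS1, against 32.0%, and the AP-1 element in POSTN alone, against 6.57%. The window of SPARC held none of the 5 motifs. It ran from 151686916 to 151687165 on chromosome 5, within the gene as GENCODE release 29 places it. The window of VCAN also lay within its GENCODE gene, and those of FN1, TNC, THBS2, POSTN and BGN did so in part. Only the window of THBS1 lay wholly before its GENCODE gene, so the matches depend on the start used. GC content ran from 36.4% in POSTN to 76.4% in FN1, with a median of 58.0% over all windows. These matches describe the letters of the reference and say nothing of binding in these cells.

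The 10 genes spanned more than 4 orders of magnitude in level. FN1 was between the 12th and the 20th most abundant of all rows in each library, at 1466 to 2176 FPKM. It made up 55.6% to 62.8% of the summed FPKM of the 10 genes. After FN1 came SPARC (573 to 690.0 FPKM), AGRN (259 to 358), THBS1 (100.02 to 172), VCAN (67.4 to 92.7), TNC (46.0 to 61.5) and LUM (2.004 to 2.32). In this order the range of each gene over the 4 libraries lay above that of the next, down to BGN. BGN, THBS2 and POSTN had means of 0.339, 0.0781 and 0.0659 FPKM, and the ranges of BGN and THBS2 overlapped, as did those of THBS2 and POSTN. The paralogues THBS1 and THBS2 differed 1922-fold in mean FPKM, a scale that is already corrected for transcript length. The plot of values by library shows this order.

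**Figure D1:**
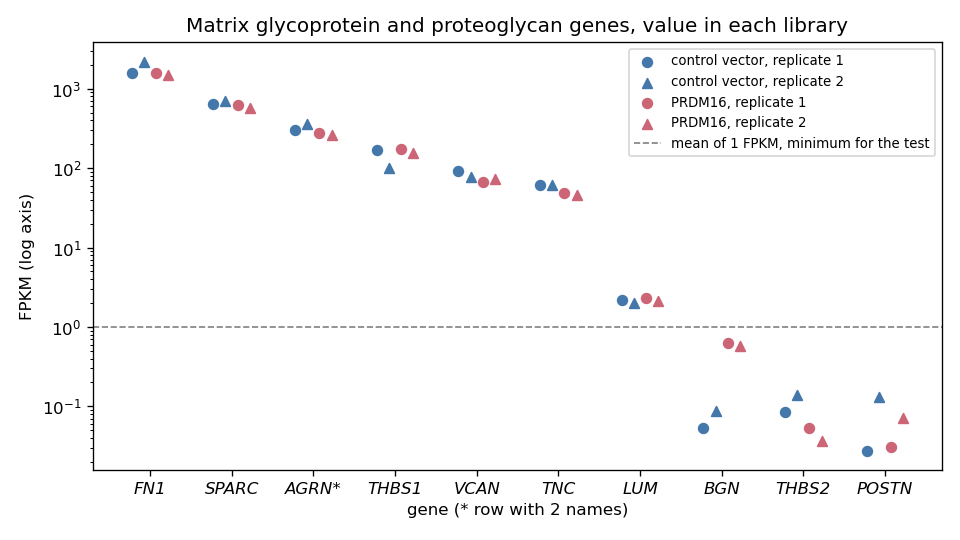
FPKM on a log axis for the 10 genes, ordered by mean level, with 1 point for each of the 4 libraries (blue, control vector; red, PRDM16; circles, replicate 1; triangles, replicate 2). FN1 lies at 1466 to 2176 FPKM, while BGN, THBS2 and POSTN lie under the dashed line at 1 FPKM, the mean needed to enter the test.

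No matrix gene passed the test for a difference between PRDM16 and control vector. The 7 genes with a mean of at least 1 FPKM were tested with limma on log2(FPKM + 1), and 0 of 7 had an adjusted p under 0.05, where 0.0226% of all tested rows did. At an unadjusted p under 0.05 there was 1 of 7, TNC, against 6.12% of tested rows. In 5 of the 7 both PRDM16 libraries lay below both control vector libraries, against 20.3% of tested rows, and in 0 of 7 both lay above, against 21.1%. A lower mean log2 value was found in 5 of the 7, against 49.3% of tested rows. The genes were chosen with earlier results of these data known, so these shares are no independent test. The median log2 change of the 7 was -0.28, beside 0.004 over all tested rows, and it was -0.083 without control vector replicate 2, when 6 of the 7 had a lower mean. With 2 libraries against 2, an exact two-sided permutation test cannot go below a p of 1 in 3, so only limma p-values are given. In bulk RNA, fewer cells making a transcript and less of it per cell cannot be told apart.

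Tenascin-C had the smallest p of the 7 genes. TNC encodes a large hexameric glycoprotein of healing wounds and tumour stroma. It was measured at 61.0 and 61.5 FPKM in the control vector libraries and at 49.0 and 46.0 FPKM in the PRDM16 libraries. The control values were nearly equal, and the higher PRDM16 library lay 19.7% below the lower control library. The means were 61.2 ± 0.310 and 47.5 ± 2.104 FPKM (SD, n = 2 each), 1.29-fold lower with PRDM16. On the log2 scale it differed by -0.36 (SE 0.09), with an unadjusted 95% interval from -0.59 to -0.13 and a limma adjusted p of 0.689. Leaving out any 1 library gave values from -0.40 to -0.32, the narrowest such span among the 7. The gene lies on chromosome 9 at 115019578 to 115118257 (GENCODE release 29, minus strand of GRCh38), and shares 129 exonic bases with DEC1 on the opposite strand. The sources used here do not state if the libraries kept strand, so reads of overlapping genes cannot be told apart.

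By likeness of pattern, the tested genes nearest to TNC over the 4 libraries were BEND7, ZNF608 and ROGDI. Likeness was the Euclidean distance between deviations of log2(FPKM + 1) from each gene's own mean, at 0.0204, 0.0340 and 0.0354. BEND7, for example, was 26.3 and 26.3 FPKM in the control vector libraries and 21.3 and 19.6 FPKM in the PRDM16 libraries. With 4 libraries and 13246 rows, close matches are easily found.

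Fibronectin was lower in both PRDM16 libraries, but by a narrow margin and mainly against a single control library. FN1 was 1587 and 2176 FPKM in the control vector libraries and 1574 and 1466 FPKM in the PRDM16 libraries. Control vector replicate 2 stood above the other 3, which lay close together, and the higher PRDM16 library was 0.788% below the lower control library. The log2 change of -0.29 (SE 0.17, limma adjusted p = 0.689) was -0.063 without control vector replicate 2 and -0.52 without replicate 1 of that group. FN1 lies on chromosome 2 at 215360440 to 215436172 on the minus strand.

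SPARC, a collagen-binding and calcium-binding glycoprotein, had the second highest level and, of the 5 tested genes that were lower in both PRDM16 libraries, the log2 change nearest to 0. It was 637 and 690.0 FPKM in the control vector libraries and 631 and 573 FPKM in the PRDM16 libraries. The groups were separated by 0.937%. Its log2 change of -0.14 had an SE of 0.09 and a limma adjusted p of 0.689, and it ranged from -0.21 (without PRDM16 replicate 1) to -0.072 (without PRDM16 replicate 2) when 1 library was left out. SPARC lies on chromosome 5 at 151661096 to 151687165 and shares 381 exonic bases with the antisense gene CLMAT3.

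Thrombospondin-1 had a higher mean with PRDM16, within overlapping libraries. THBS1, which encodes an inhibitor of angiogenesis and an activator of latent TGF-beta, was 171 and 100.02 FPKM in the control vector libraries and 172 and 157 FPKM in the PRDM16 libraries. Here 3 libraries were close together and control vector replicate 2 was low, the reverse of its place for FN1, so the groups overlapped. The log2 change of 0.33 (SE 0.27, limma adjusted p = 0.703) became -0.055 without that library and 0.71 without control vector replicate 1. The 95% interval in fold terms, on the scale of FPKM + 1, ran from 0.768 to 2.05, an interval that held values of either sign. The gene lies on chromosome 15 at 39581079 to 39599466 and shares 448 exonic bases with FSIP1 on the opposite strand, which was measured at 21.4 to 27.8 FPKM.

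THBS2, its paralogue, was near the floor, at 0.0850 and 0.138 FPKM in the control vector libraries and 0.0531 and 0.0362 FPKM in the PRDM16 libraries. Both PRDM16 values lay below both control values. POSTN, which encodes periostin, was 0.0277 and 0.133 FPKM against 0.0307 and 0.0721 FPKM. Its groups overlapped, and control vector replicate 1 had the lowest value. Neither gene reached the mean of 1 FPKM needed for the test. THBS2 lies on chromosome 6 at 169215780 to 169254044 and POSTN on chromosome 13 at 37562583 to 37598844.

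Among the proteoglycans, versican and agrin were lower in both PRDM16 libraries and lumican was not. VCAN was 92.7 and 77.7 FPKM in the control vector libraries and 67.4 and 71.8 FPKM in the PRDM16 libraries. Both PRDM16 values lay below both control values, the higher of them 7.48% below the lower control value. Its means were 85.2 ± 10.6 and 69.6 ± 3.12 FPKM (SD, n = 2 each), and the log2 change was -0.28 (SE 0.12, limma adjusted p = 0.689). Unlike FN1 and AGRN, it was lower in control vector replicate 2 than in replicate 1, and the change was -0.41 without replicate 2 and -0.16 without replicate 1. VCAN lies on chromosome 5 at 83471465 to 83582303, and its antisense gene VCAN-AS1 was listed at 0 in all 4 libraries.

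AGRN, measured with RP11-54O7.14, was 303 and 358 FPKM in the control vector libraries and 279 and 259 FPKM in the PRDM16 libraries. Control vector replicate 2 was again the highest, and the groups were separated by 7.92%. The log2 change was -0.29 (SE 0.11, limma adjusted p = 0.689), with values of -0.17 after leaving out control vector replicate 2 and -0.41 after leaving out replicate 1. AGRN lies on chromosome 1 at 1020123 to 1056118.

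LUM was the steadiest of the 10 genes, with a highest value only 1.16 times the lowest. It was 2.21 and 2.004 FPKM in the control vector libraries and 2.32 and 2.13 FPKM in the PRDM16 libraries, and the groups overlapped. The log2 change was 0.05 (SE 0.14, limma adjusted p = 0.897), with a 95% interval from 0.811 to 1.33 in fold terms on the scale of FPKM + 1. The gene lies on chromosome 12 at 91102629 to 91111831. The plot of differences shows the 7 tested genes side by side.

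**Figure D2:**
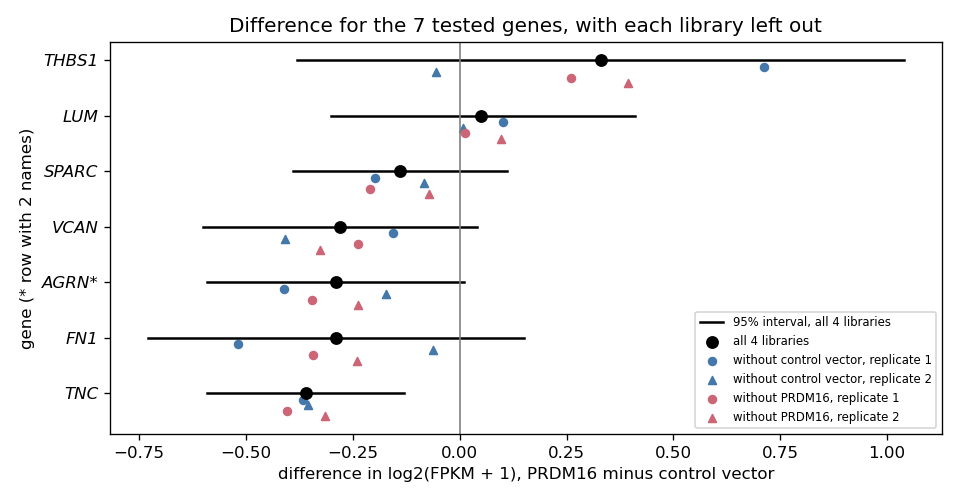
Difference in log2(FPKM + 1), PRDM16 minus control vector, for the 7 tested genes (black point, all 4 libraries; black line, unadjusted 95% interval from limma), with the value after leaving out each library in turn (coloured points). TNC stays between -0.40 and -0.32, while FN1 moves from -0.52 to -0.063 and THBS1 crosses 0.

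Biglycan alone among the 10 genes was higher in both PRDM16 libraries, and its level stayed low. BGN, whose protein can also signal through Toll-like receptors, was 0.0532 and 0.0883 FPKM in the control vector libraries and 0.630 and 0.583 FPKM in the PRDM16 libraries. The lower PRDM16 value lay far above the higher control value, and the control values differed 1.66-fold between themselves. The means were 0.0707 ± 0.0248 and 0.606 ± 0.0338 FPKM (SD, n = 2 each), 8.57-fold higher with PRDM16. Both PRDM16 libraries were at least 5 times both control vector libraries, which held for 1.89% of the 5555 rows with a mean from 0.1 to under 1 FPKM. The opposite pattern, with the control libraries at least 5 times higher, held for 2.21% of those rows. BGN itself, with a mean of 0.339 FPKM over the 4 libraries, entered that range only through its PRDM16 values. Its control mean of 0.0707 FPKM lay under 0.1 FPKM. These shares are thus no measure of how unusual its difference was. BGN was under the minimum for the test. When all 27968 rows above 0 were tested, the unadjusted limma p was 0.000577 for BGN and 0.00628 for TNC. Neither passed after adjustment. In that fit BGN differed by 0.59 on the log2 scale (SE 0.054, limma adjusted p = 0.645). On the log2(FPKM + 1) scale this understates the change, and with a pseudocount of 0.1 the log2 change was 2.06. The gene lies on chromosome X at 153494939 to 153509554 and overlaps HAUS7 on the opposite strand without a shared exonic base. HAUS7 was 34.8 and 25.7 FPKM in the control vector libraries and 34.3 and 38.7 FPKM in the PRDM16 libraries.

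Markers of fibroblasts, listed as cells known for high LUM, POSTN and THBS2, were near the floor in all 4 libraries where measured in rows of their own. The 7 listed markers measured in rows of their own summed to 0.380 and 1.37 FPKM in the control vector libraries and to between 0.648 and 0.924 FPKM in the PRDM16 libraries, and 0 of 7 reached a mean of 1 FPKM. DCN, DPT and PI16 were listed at 0 in every library. Of the other 4, MFAP5 and COL1A2 were higher in both PRDM16 libraries, while PDGFRB and FAP overlapped between the groups. Being higher in both held for 13.6% of rows with a mean from 0.1 to under 1 FPKM. MFAP5 entered that range only through its PRDM16 values, and the mean of COL1A2 lay under it. PDGFRB, a growth factor receptor, was 0.296 and 1.26 FPKM against 0.399 and 0.498 FPKM, and FAP, a surface protease, was 0.0705 FPKM and listed at 0 against listed at 0 and 0.0456 FPKM. MFAP5, a microfibril protein, was 0.0131 and 0.0934 FPKM against 0.141 and 0.291 FPKM. The collagen gene COL1A2 was listed at 0 and 0.0127 FPKM in the control vector libraries against 0.108 and 0.0892 FPKM in the PRDM16 libraries. PDGFRA and COL3A1 were measured only in rows with several names, and both rows were higher in both PRDM16 libraries. The PDGFRA row, not near the floor, was 32.4 and 31.1 FPKM against 38.3 and 39.6 FPKM. Of all tested rows, 21.1% were higher in both PRDM16 libraries. The COL3A1 row was listed at 0 and 0.0109 FPKM against 0.0497 and 0.104 FPKM. How much of either row came from the marker itself is unknown. The part of fibroblasts in the BGN values was not tested.

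**Figure D3:**
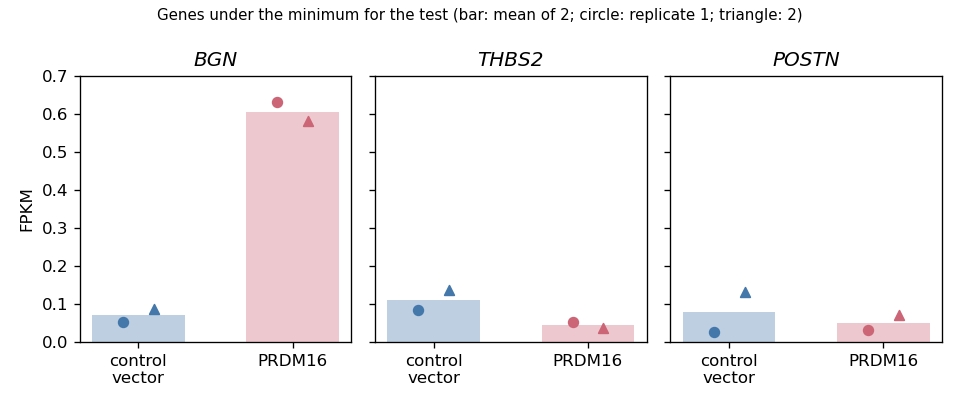
FPKM on a linear axis for the 3 genes under the minimum for the test, with bars for the mean of 2 libraries and points for each library (circle, replicate 1; triangle, replicate 2). BGN is at 0.630 and 0.583 FPKM with PRDM16 against 0.0532 and 0.0883 FPKM with the control vector, while THBS2 and POSTN are at or under 0.138 FPKM in every library.

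Other genes of the matrix were taken from 5 lists, also chosen with earlier results of these data known. From these lists 76 distinct genes could be tested, and no gene on any list passed (limma, 0 called higher and 0 called lower in each). At an unadjusted p under 0.05 the counts were 1 of 4, 4 of 17, 3 of 12, 1 of 29 and 2 of 16, in the order in which the lists follow, against 6.12% of tested rows. Close relatives of the glycoproteins all had lower means with PRDM16 (4 of 4 tested, median log2 change -0.23), beside 49.3% of all tested rows, and 2 were lower in both PRDM16 libraries, beside 20.3%. Without control vector replicate 2 it was 3 of 4, with a median of -0.15. The highest and the one with the smallest p was TGFBI, a relative of periostin that binds integrins. It was 1045 and 1077 FPKM in the control vector libraries and 874 and 897 FPKM in the PRDM16 libraries, a log2 change of -0.26 (SE 0.07, limma adjusted p = 0.689). SPOCK1, a testican proteoglycan related to SPARC, was 204 and 207 FPKM against 194 and 164 FPKM. FSTL1, another relative of SPARC, overlapped between the groups, at 296 and 279.9 FPKM against 290.2 and 256 FPKM.

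Genes listed as other structural glycoproteins of the matrix, some of them matricellular, also lay mostly lower with PRDM16. Of 17 tested, 14 had a lower mean, beside 49.3% of all tested rows. In both PRDM16 libraries 10 were lower and 2 higher, against 20.3% and 21.1% of all tested rows. The median log2 change was -0.20, and -0.068 without control vector replicate 2, when 12 of the 17 had a lower mean. MATN2, an adaptor protein of matrix filaments, was 22.5 and 27.5 FPKM in the control vector libraries and 13.6 and 12.7 FPKM in the PRDM16 libraries. Its log2 change of -0.87 (SE 0.13) did not pass, with a limma adjusted p of 0.616. CTGF, a matricellular regulator, was higher in both PRDM16 libraries, with 31.0 and 28.5 FPKM beside 23.7 and 21.9 FPKM in the control vector. SPP1, which encodes osteopontin, was the most abundant of the list, at 681 and 788 FPKM against 601 and 649.6 FPKM. CYR61, a matricellular relative of CTGF, overlapped between the groups, at 395 and 348 FPKM against 396 and 327 FPKM.

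Genes listed as other proteoglycan core proteins showed no common direction. Of 12 tested, 6 had a lower mean and 6 a higher one, and 4 were lower and 3 higher in both PRDM16 libraries, where 20.3% and 21.1% of all tested rows were. The median log2 change was -0.02. That median became 0.12 when control vector replicate 1 was left out, and -0.14 when replicate 2 of that group was. HSPG2, which encodes the basement membrane proteoglycan perlecan, was 70.5 and 87.3 FPKM in the control vector libraries and 55.7 and 43.9 FPKM in the PRDM16 libraries (log2 change -0.66, SE 0.17, limma adjusted p = 0.689). SDC2, a cell surface heparan sulphate proteoglycan, was 233 and 198 FPKM against 183 and 164 FPKM. SRGN, a proteoglycan of secretory granules, was 19.7 and 19.6 FPKM against 23.6 and 23.7 FPKM. CD44, the hyaluronan receptor, was 490.4 and 405 FPKM against 558 and 537 FPKM. SRGN and CD44 were higher, and HSPG2 and SDC2 lower, in both PRDM16 libraries.

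The enzymes that build glycosaminoglycan chains and hyaluronan were spread around 0. Of 29 tested, 10 had a lower and 19 a higher mean, beside 49.3% of all tested rows with a lower mean. In both PRDM16 libraries 4 were lower and 5 higher, against 20.3% and 21.1% of all tested rows. The median log2 change was 0.05, against 0.11 when control vector replicate 1 was left out and 0.019 when replicate 2 of that group was. NDST1, which modifies heparan sulphate, was 117 and 119.99 FPKM in the control vector libraries and 103 and 88.5 FPKM in the PRDM16 libraries. UST, a sulphotransferase of chondroitin and dermatan chains, was 12.8 and 14.2 FPKM against 11.7 and 11.1 FPKM. EXT1, which extends heparan sulphate chains, was 153 and 135 FPKM against 147 and 135 FPKM.

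Receptors for the 10 gene products gave 9 lower and 7 higher means among 16 tested, beside 49.3% lower over all tested rows. In both PRDM16 libraries 4 were lower and 3 higher, against 20.3% and 21.1% of all tested rows, with a median log2 change of -0.06 that was close to 0 (-2.378e-05) without PRDM16 replicate 2. The most abundant were CALR, a binding partner of thrombospondin at the cell surface, at 1086 and 1284 FPKM against 1177 and 1094 FPKM, and the integrin gene ITGB1, at 734 and 798 FPKM against 761 and 660.2 FPKM. Both overlapped between the groups. LRP1, an endocytic receptor of matrix proteins, was 7.39 and 9.69 FPKM in the control vector libraries and 5.34 and 6.16 FPKM in the PRDM16 libraries. TLR4, a receptor through which biglycan can signal, was 1.30 and 1.24 FPKM against 1.97 and 1.94 FPKM. Both had a limma adjusted p of 0.689.

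**Figure D4:**
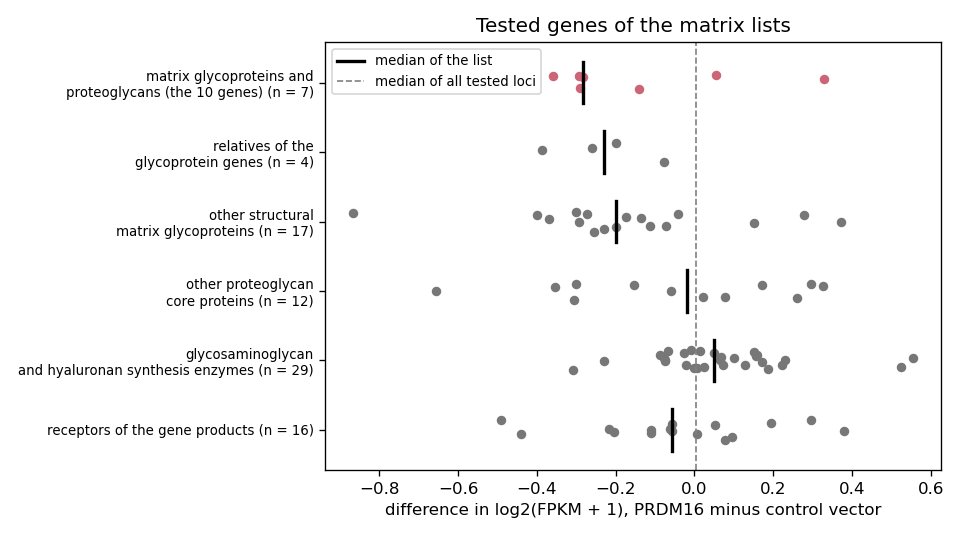
Difference in log2(FPKM + 1), PRDM16 minus control vector, for each tested gene of the 10 (red) and of the 5 related lists (grey), with the median of each list (black bar) and of all tested rows (dashed line). The medians are -0.28 for the 7 tested of the 10 genes, -0.23 for relatives of the glycoproteins and -0.20 for other structural glycoproteins, and lie between -0.06 and 0.05 for the other 3 lists.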

How the data were processed

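RNA from 786-O cells with a control vector (2 libraries) or PRDM16 (2 libraries) was sequenced, and the authors deposited 1 value per locus and library. Per the submitters' processing notes, Cufflinks 2.2.1 and Cuffdiff were used with TopHat2 2.1.0, Trim Galore and the hg38 build. The sources used here do not give the annotation, filters, library scaling or strand. The deposited values were read as FPKM, a unit the header does not name, because they hold fractions and add up to 556213 to 574003 in a library. Depth is unknown, so no counting interval is given.

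Rows with a mean of at least 1 FPKM over the 4 libraries (13246) entered a limma 3.58.1 fit (R 4.3.3) on log2(FPKM + 1), with a variance trend, a two-sided moderated test and Benjamini-Hochberg adjustment at 0.05. This scale understates changes of low genes. The test was checked on simulated data. No exact permutation p is used. Related lists were matched to rows naming a single gene, and described by counts and medians. From each list the text names the 2 tested genes with the smallest p and the 2 with the highest mean. For the tested member with the smallest p it also names the 3 nearest single-name genes of at least 5 FPKM, leaving out clone-named and non-coding symbols. The members and lists were chosen with earlier results of these data known. Coordinates are from GENCODE release 29, which may differ from the authors' annotation, and promoters from RefSeq GRCh38.p14. Python 3.11.15 was used with pandas 2.3.3, numpy 2.4.6 and, for plots, matplotlib 3.10.9. Alternatives covered pseudocounts, filters, scalings, variance options, the replicate block and leaving out each library.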

Additional observations from a re-analysis of the deposited data

How the results depend on the processing

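Of 97 values of the 7 tested genes under the alternatives, 96 kept their direction and none passed an adjusted p of 0.05, with limma adjusted p from 0.679 with all 4 libraries and from 0.13 with 1 left out. The exception was THBS1, which ranged from -0.055 (without control vector replicate 2) to 0.71 with 1 library left out. POSTN, not tested, was -0.038, ranged from -0.11 to 0.033 with 1 library left out (highest again without control vector replicate 2) and was -0.20 with a pseudocount of 0.1. The median of the tested genes (-0.28) was -0.12 without a filter, which added the 3 low genes, and ranged from -0.24 to -0.083 with 1 library left out. No list gained a call in 75 list and setting combinations. The number of called rows among all loci was 3. It was 1 at an adjusted p under 0.01, 1 without a filter, 6 without a variance trend, 5 with a pseudocount of 0.1, 5 with robust variances and 16 to 39 with 1 library left out. The cause was not tested.

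Replicate numbers are shared between the groups, but the labels do not say that they mark pairs. Across tested rows, the difference between replicates 1 and 2 in one group had a correlation of -0.0584 with that in the other. With the replicate number as a block, 5 rows were called, none of them a member, and the limma adjusted p of TNC was 0.917. The main limits are 2 libraries a group, unknown depth and, for BGN, THBS2 and POSTN, values under 1 FPKM.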

Other observations

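Basement membrane genes and hyaluronan genes were singled out after their values were seen, and no test was made of either group. Perlecan (HSPG2), the nidogens and agrin belong to basement membranes, and these 4 were lower in both PRDM16 libraries, as were 20.3% of all tested rows. TINAGL1, another basement membrane gene, overlapped between the groups, at 87.1 and 96.2 FPKM against 88.8 and 72.3 FPKM. NID1, whose product links laminin to other basement membrane proteins, was 2.23 and 1.74 FPKM in the control vector libraries and 1.43 and 1.42 FPKM in the PRDM16 libraries. NID2 was 44.99 and 52.6 FPKM against 44.9 and 43.5 FPKM, a gap that was small beside the spread of the control vector. Their log2 changes were -0.29 and -0.14, and neither had an unadjusted limma p under 0.05.

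The hyaluronan synthase genes HAS2 and HAS3 had higher means with PRDM16, where 49.3% of all tested rows had lower ones. HAS2 was 3.04 and 1.66 FPKM in the control vector libraries and 3.33 and 4.36 FPKM in the PRDM16 libraries. HAS3 was 26.2 and 13.2 FPKM against 24.5 and 30.3 FPKM, so its groups overlapped. Control vector replicate 2 had the lowest value for both genes. The log2 changes of HAS2 and HAS3 were 0.55 and 0.52, and neither had an unadjusted limma p under 0.05.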
